A study of Mus musculus with 12 samples.

Results

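The genes described here are 10 that encode the machinery of MHC class I antigen processing and presentation in the mouse, taken by symbol from the 54532 genes of a count table: H2-K1, H2-D1, B2m, Tap1, Tap2, Tapbp, Psmb8, Psmb9, Psmb10 and Nlrc5. Each symbol matched 1 row, and all 10 passed the filter on low counts, which left 12766 genes for testing. RNA was sequenced from N9 cells, an immortalised line derived from mouse microglia, the macrophages of the brain. Libraries fell into 4 groups of 3. Cells of the first group were kept for 18 h in medium labelled high fructose (15 mM, listed with 3 mM glucose). Those of the next were kept for 18 h in medium labelled high glucose (15 mM, listed with 5 mM fructose). Both then received lipopolysaccharide (LPS, a bacterial cell wall component that activates Toll-like receptors) at 1 µg/ml for 6 h. The third group had the same LPS treatment in control medium, labelled as 3 mM glucose with 5 mM fructose, and the last was control medium without LPS. No label names a high-sugar culture left without LPS, so each sugar was measured only in LPS-treated cells. The labels do not say whether 15 mM is a final or an added concentration, or whether the libraries of a group are separate cultures, and the p-values rest on a spread between libraries that may be technical alone.

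Class I molecules show short peptides from proteins made inside the cell to cytotoxic T cells. Proteasomes cut the proteins, and in cells exposed to interferon the catalytic subunits Psmb8, Psmb9 and Psmb10 replace Psmb5, Psmb6 and Psmb7 to form the immunoproteasome. The transporter made of Tap1 and Tap2 moves the peptides into the endoplasmic reticulum, where tapasin (Tapbp) holds it next to empty class I heavy chains such as H2-K1 and H2-D1, each paired with the light chain B2m. Nlrc5 is a transcriptional co-activator of this gene set, and interferon signalling raises much of it. Resting microglia carry little class I on their surface and gain it on activation.

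Total counts ran from 15453776 to 17956772 per library. Of 14 microglia and macrophage marker genes 11 passed the filter, with Csf1r at 6088 to 8027 counts in each library. P2ry12, Cx3cr1 and Tmem119, markers of microglia in the brain, had 1 to 6, 15 to 68 and 92 to 177 counts. Aif1 and C1qa, of the same list, had 2 to 9 and 0 to 11 counts. Summed marker levels of that list were 2240 to 2240 CPM (counts over each library total) with high fructose, 2100 to 2170 CPM with high glucose, 2310 to 2350 CPM with LPS in control medium and 2260 to 2320 CPM without LPS. Of the dendritic cell list 4 of 7 genes passed the filter, and its summed level was 17.6 to 20.7 CPM with LPS in control medium and 7.79 to 8.68 CPM without LPS. Xcr1 carried 29 to 296 counts of it and Zbtb46 31 to 66, whereas Clec9a and Ccr7 had none and Flt3 had 0 to 1. Other marker lists moved as well. The astrocyte list (3 of 6 tested, mostly Gja1, with Gfap at 0 to 10 counts) summed to 112 to 115 CPM with high fructose and LPS, against 93 to 101 CPM with LPS in control medium. The next sums are with LPS against without, in control medium. The neuron list (2 of 6 tested, Map2 at 214 to 432 and Snap25 at 0 to 12 counts) summed to 23.6 to 25.6 against 31.6 to 32.1 CPM. The oligodendrocyte list (2 of 6, Mbp at 443 to 672 and Mog at 0 to 1) summed to 41.2 to 41.9 against 47.3 to 56.1 CPM. The endothelial list (2 of 5, Flt1 at 816 to 1264 and Cldn5 at 0) summed to 50.1 to 56.3 against 67.6 to 74.3 CPM. The fibroblast list (3 of 5 tested) ranged from 0.777 to 14.5 CPM with high fructose and LPS, against 0.764 to 5.56 CPM with LPS in control medium. Their part in the results below was not tested. None of the 8 lymphocyte markers passed the filter, and their summed level was at most 0.324 CPM. The share of counts on ribosomal RNA genes was 0.423, 0.313 and 0.365% with high fructose and LPS, against 0.585, 0.535 and 0.457% with LPS in control medium, groups that do not overlap, and its part was not tested either. In bulk RNA a change in every cell and a change in the share of responding cells cannot be told apart.

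All 10 genes were higher after LPS in control medium, with log2 changes of 1.03 to 1.78 for the peptide transporter, tapasin and Nlrc5 and of 0.37 to 0.78 for the class I chains and the immunoproteasome subunits, a difference that was not tested. High fructose lowered the LPS-treated level of 5 genes, by the most for Tap1 and Psmb9, and of these only Psmb9 overlapped the libraries without LPS. High glucose lowered Tap1 alone among the 10, by a smaller amount, a call kept in 1 of 6 fits with a library left out. Of all genes tested, 15.2% were called higher with LPS, 2.55% lower with high fructose and 0.971% lower with high glucose. A gene is called higher or lower where edgeR's quasi-likelihood test over all 12 libraries gave a Benjamini-Hochberg adjusted p below 0.05, and changes are log2 fold changes with their standard error (SE). Levels of the 10 genes are given in CPM after TMM scaling, which sets the library totals on a common footing, and the plot of CPM by library shows them all.

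**Figure D1:**
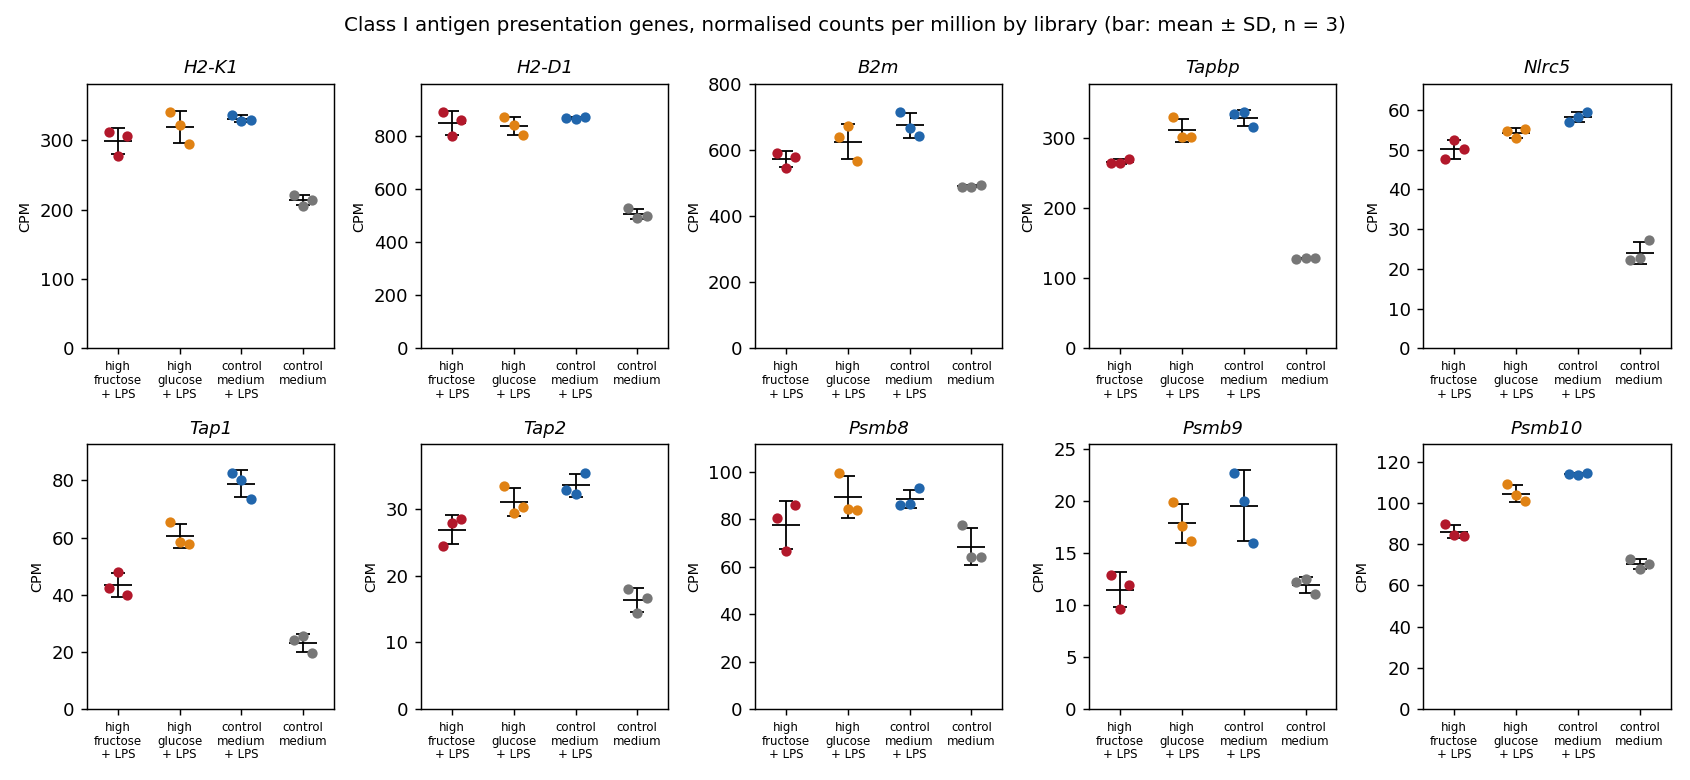
TMM-scaled CPM of the 10 class I antigen processing and presentation genes in each of the 12 libraries, 1 panel per gene, with the groups side by side (high fructose with LPS, high glucose with LPS, LPS in control medium, control medium). Points are libraries and bars give mean ± SD of 3. For Tap1 the fructose libraries (39.9 to 48.0 CPM) lie between the libraries with LPS in control medium (73.6 to 82.7 CPM) and those without LPS (19.6 to 25.5 CPM).

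The first comparison asked how LPS changed these genes in control medium. LPS raised 10 of the 10, where 15.2% of all genes tested were called higher, and for 10 of 10 the 3 LPS libraries lay above the 3 without LPS, where 22.6% of all genes tested did so. Their median log2 change was 0.74, against −0.004 over all genes tested. By deposited FPKM (fragments per kilobase of gene, scaled to the library), B2m was highest of the 10 after LPS. It had 782 ± 43.7 FPKM with LPS against 568.5 ± 3.06 FPKM without (mean ± SD, n = 3 each). H2-D1 followed at 335 FPKM, H2-K1 at 126 FPKM and Tapbp at 99.5 FPKM, and Tap2, Nlrc5 and Psmb9 were lowest at 8.82, 6.83 and 5.33 FPKM. No neighbours in this order overlapped between libraries after LPS. Without LPS, Tap1 and Tap2 overlapped at 4.19 and 4.31 FPKM, as did Psmb9 and Nlrc5 at 3.25 and 2.82 FPKM. The gene length that FPKM divides by was 3659 bases for Psmb9 and 5476 for Tap1. Their longest coding transcripts have 1352 and 2953 bases, while for B2m both lengths are 860. The order of the genes, and the size of the gene ratios below, therefore depend on the length used.

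The heavy chains H2-K1 and H2-D1 bind the peptide and present it. H2-K1 (ENSMUSG00000061232, chr17:33996017-34000333, minus strand, mm10) had 313, 277 and 307 CPM with high fructose and LPS, 341, 322 and 295 CPM with high glucose and LPS, and 337, 327 and 329 CPM with LPS in control medium, against 221, 206 and 215 CPM without LPS. H2-D1 (ENSMUSG00000073411, chr17:35262730-35267499, plus strand) had 891, 800 and 859 CPM with high fructose and LPS, 872, 841 and 803 CPM with high glucose and LPS, and 869, 864 and 873 CPM with LPS in control medium, against 529, 492 and 500 CPM without LPS. All LPS-treated libraries lay above all control libraries for both genes. Among the LPS groups the only separation was H2-K1 with high fructose, which lay just below LPS in control medium but overlapped high glucose. LPS raised H2-K1 by 0.63 ± 0.06 (adjusted p = 1.2e-07) and H2-D1 by 0.78 ± 0.05 (adjusted p = 3.76e-10). The changes with high fructose, −0.15 ± 0.06 for H2-K1 (adjusted p = 0.187) and −0.03 ± 0.05 for H2-D1 (adjusted p = 0.831), did not pass the threshold, nor did −0.05 ± 0.06 and −0.05 ± 0.05 with high glucose.

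B2m, the invariant light chain of every class I molecule, lies on another chromosome from the heavy chains (ENSMUSG00000060802, chr2:122147686-122153083, plus strand). It had 593, 547 and 579 CPM with high fructose and LPS, 639, 673 and 567 CPM with high glucose and LPS, and 716, 668 and 643 CPM with LPS in control medium, against 490.1, 489 and 495 CPM without LPS. The fructose libraries lay below all libraries with LPS in control medium and above all without LPS, while the glucose libraries overlapped both other LPS groups. LPS raised B2m by 0.46 ± 0.06 (adjusted p = 5.93e-06). High fructose lowered it by 0.24, a log2 change of −0.24 ± 0.06 (adjusted p = 0.0186), the call least secure of the 5: it was lost without library 1 of LPS in control medium (adjusted p = 0.118), without library 2 of it (0.0587), without fructose library 2 (0.08) and without fructose library 3 (0.0522). It was also lost with limma on log2 FPKM (adjusted p = 0.055 to 0.188). High glucose gave −0.11 ± 0.06 (adjusted p = 0.418).

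The windows of 250 bases before the RefSeq start of H2-K1, H2-D1 and B2m are shown because these 3 are the only ones of 8 genes with a window in the RefSeq table (GRCm38.p6) that hold the NF-kB letters (GGG, any 2 bases, TT, any base, CC), which 4.1% of all 32851 windows hold. Both strands were searched, and each window is printed 5′ to 3′ on the gene's strand, at chr17:34000334-34000583 (minus) for H2-K1, chr17:35262844-35263093 (plus) for H2-D1 and chr2:122147437-122147686 (plus) for B2m. Capitals mark matches to those letters, to the interferon response element core GAANNGAAA, to its longer form (GAAA, any 2 bases, GAAA) and to the Y box letters ATTGG, on either strand.
H2-K1: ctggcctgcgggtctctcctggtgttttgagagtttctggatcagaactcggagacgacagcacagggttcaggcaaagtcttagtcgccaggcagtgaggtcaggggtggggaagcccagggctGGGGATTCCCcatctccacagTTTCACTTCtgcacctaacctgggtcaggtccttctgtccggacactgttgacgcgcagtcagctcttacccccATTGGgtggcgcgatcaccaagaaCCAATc
H2-D1: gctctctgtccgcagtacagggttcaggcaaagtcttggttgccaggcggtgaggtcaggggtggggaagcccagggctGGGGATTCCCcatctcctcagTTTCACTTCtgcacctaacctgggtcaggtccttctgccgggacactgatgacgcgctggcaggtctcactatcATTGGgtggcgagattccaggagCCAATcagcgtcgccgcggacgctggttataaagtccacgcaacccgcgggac
B2m: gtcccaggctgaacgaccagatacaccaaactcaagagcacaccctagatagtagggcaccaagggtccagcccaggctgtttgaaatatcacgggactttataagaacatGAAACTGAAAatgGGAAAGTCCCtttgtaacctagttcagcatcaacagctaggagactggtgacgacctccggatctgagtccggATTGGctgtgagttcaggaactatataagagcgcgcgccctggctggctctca
H2-K1 and H2-D1 share GGGGATTCCC followed by TTTCACTTC, and their windows were identical at 180 of 203 aligned bases (88.7%). B2m holds GAAACTGAAA and GGAAAGTCCC. No match overlapped another in these windows. GAANNGAAA stood in 2 of 8 windows (H2-D1 and H2-K1) against 6.3% of all, and the longer form, looked for after the windows had been seen, stood in 1 of 8 (B2m) against 3.0%. ATTGG stood in 6 of 8 against 33.8%, and TGACG, the core of the X2 box, in 5 of 8 against 17.8%. The windows of Tap1 and Psmb9 overlap, and each of these 2 counts holds 1 site that both windows share. The RefSeq start lies 364 bases from the start of the gene in the count table for H2-D1, 434 for Psmb9, 474 for Psmb8 and 3579 for Tapbp. These are matches of letters only, and binding was not measured.

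H2-K1 and H2-D1 belong to a large family, and reads of similar members can be exchanged. In alignments of at least 75 bases averaging 98% identity or more, no part of either gene's longest coding transcript matched another gene. At 95% identity 24.3% of H2-D1 and none of H2-K1 did. A more similar stretch inside a longer, less similar alignment is missed by this measure, so these values do not show that no reads are shared. Their transcripts were 88.2% identical over 1513 aligned bases. The mm10 genome is from the C57BL/6J strain, and whether the class I alleles of N9 cells differ from it, and what that would do to these counts, was not tested. The ratio of H2-K1 to H2-D1 in FPKM was 0.348 ± 0.005 with high fructose and LPS, 0.376 ± 0.012 with high glucose and LPS, 0.377 ± 0.006 with LPS in control medium and 0.417 ± 0.006 without LPS (mean ± SD, n = 3 each). The groups with LPS in control medium and without LPS did not overlap, nor did fructose with either other LPS group (exact permutation p = 0.10 for each, the smallest possible with 3 libraries a group).

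Tap1 and Tap2 form the peptide transporter, and tapasin bridges it to the heavy chain. Tap1 (ENSMUSG00000037321, chr17:34187553-34197225, plus strand) had 42.4, 48.0 and 39.9 CPM with high fructose and LPS, 65.5, 58.4 and 57.8 CPM with high glucose and LPS, and 82.7, 80.1 and 73.6 CPM with LPS in control medium, against 24.1, 25.5 and 19.6 CPM without LPS. None of the 4 groups overlapped another. LPS raised Tap1 3.42-fold, a log2 change of 1.78 ± 0.09 (adjusted p = 5.57e-11), the largest rise of the 10. High fructose then gave −0.86 ± 0.09 (adjusted p = 6.81e-06), so that Tap1 fell by 44.9% relative to LPS in control medium. High glucose gave −0.38 ± 0.09 (adjusted p = 0.0354). That glucose call was lost without library 1, 2 or 3 of LPS in control medium (adjusted p = 0.158, 0.15 and 0.0623) and without glucose library 2 or 3 (0.108 and 0.16), and with limma on log2 FPKM (0.0814 to 0.189).

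Tap2 (ENSMUSG00000024339, chr17:34203527-34216321, plus strand) had 24.4, 27.8 and 28.5 CPM with high fructose and LPS, 33.5, 29.3 and 30.3 CPM with high glucose and LPS, and 32.9, 32.2 and 35.4 CPM with LPS in control medium, against 18.0, 14.4 and 16.7 CPM without LPS. The fructose libraries lay below all other LPS libraries and above all without LPS. LPS raised Tap2 by 1.03 ± 0.09 (adjusted p = 1.27e-07), and high fructose gave −0.32 ± 0.09, which missed the threshold (adjusted p = 0.0575) but passed with no filter on low counts (0.029), with DESeq2 (0.0425) and with the replicate number as a block (0.0398). High glucose gave −0.11 ± 0.09 (adjusted p = 0.656). The ratio of Tap1 to Tap2 in FPKM was 1.119 ± 0.13 with high fructose and LPS, 1.35 ± 0.03 with high glucose and LPS, 1.63 ± 0.17 with LPS in control medium and 0.984 ± 0.212 without LPS, and it separated fructose from LPS in control medium by −0.54 on the log2 scale. High glucose was separated from LPS in control medium too, by −0.27. The exact two-sided permutation test gave its smallest p of 0.10 for each. Adjusted over 24 tests (6 gene pairs in 4 comparisons) it was 0.141.

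Tapbp (ENSMUSG00000024308, chr17:33915899-33929288, plus strand) had 264, 265 and 271 CPM with high fructose and LPS, 330.3, 302 and 302 CPM with high glucose and LPS, and 335, 338 and 316 CPM with LPS in control medium, against 128, 129 and 129 CPM without LPS. The fructose libraries stood below every other LPS library, and the libraries without LPS lowest. LPS raised Tapbp 2.56-fold, by 1.36 ± 0.05 (adjusted p = 1.84e-13), and high fructose gave −0.30 ± 0.05 (adjusted p = 0.000463). High glucose gave −0.08 ± 0.05 (adjusted p = 0.472). Of its exonic bases 4.11% lie in exons of Zbtb22 on the same strand, a gene with 500 to 686 counts per library. Exons on the other strand cover 24.9% of Tapbp, 18.5% of Tap2 and 14.7% of Psmb8, and those genes had at most 3 counts in any library. Reads in such overlaps may count for neither gene where counting ignores strand, and the strand setting is not given. The effect on these levels was not tested.

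The immunoproteasome subunits Psmb8, Psmb9 and Psmb10 are the interferon-induced catalytic ones, and all 3 were called higher after LPS. Psmb8 (ENSMUSG00000024338, chr17:34197721-34201454, plus strand) had 80.7, 66.5 and 86.0 CPM with high fructose and LPS, 99.7, 84.3 and 84.1 CPM with high glucose and LPS, and 86.2, 86.5 and 93.2 CPM with LPS in control medium, against 77.4, 64.2 and 64.1 CPM without LPS. Its LPS libraries in control medium lay above those without LPS, and its fructose libraries overlapped those without LPS. LPS raised it by 0.37 ± 0.09 (adjusted p = 0.00532), the smallest rise of the 10. High fructose gave −0.19 ± 0.09 (adjusted p = 0.34) and high glucose 0.01 ± 0.09 (adjusted p = 0.976).

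Psmb9 (ENSMUSG00000096727, chr17:34181988-34187764, minus strand) had 12.9, 9.61 and 11.9 CPM with high fructose and LPS, 19.9, 17.6 and 16.1 CPM with high glucose and LPS, and 22.7, 19.99 and 16.004 CPM with LPS in control medium, against 12.3, 12.5 and 11.1 CPM without LPS. The fructose libraries overlapped those without LPS and lay below all other LPS libraries. LPS raised Psmb9 by 0.71 ± 0.13 (adjusted p = 0.000493) and high fructose gave −0.77 ± 0.14 (adjusted p = 0.00172), so that Psmb9 fell by 41.4% relative to LPS in control medium. High glucose gave −0.13 ± 0.13 (adjusted p = 0.736). Psmb10 (ENSMUSG00000031897, chr8:105935735-105938444, minus strand) had 89.9, 84.7 and 83.8 CPM with high fructose and LPS, 109, 104 and 101 CPM with high glucose and LPS, and 114, 113 and 115 CPM with LPS in control medium, against 72.7, 67.8 and 70.3 CPM without LPS. Its 4 groups were all separate. LPS raised Psmb10 by 0.70 ± 0.05 (adjusted p = 5.18e-09), high fructose gave −0.40 ± 0.05 (adjusted p = 5.51e-05) and high glucose −0.12 ± 0.05 (adjusted p = 0.266).

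Psmb9 and Tap1 lie head to head, their spans sharing 212 bases, within a stretch of 34.3 kb that runs from Psmb9 to Tap2. The window before Tap1 (chr17:34187306-34187555, plus strand) is shown because it overlaps the one before Psmb9, and these genes fell most with high fructose. Its capitals mark the Y box letters, read on the other strand as CCAAT.
Tap1: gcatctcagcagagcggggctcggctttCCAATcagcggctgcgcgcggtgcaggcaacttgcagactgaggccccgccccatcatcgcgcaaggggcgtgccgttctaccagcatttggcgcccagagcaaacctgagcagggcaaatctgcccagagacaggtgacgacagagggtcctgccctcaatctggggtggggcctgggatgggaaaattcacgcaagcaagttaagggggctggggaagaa
None of the NF-kB or interferon response element letters searched stand in this window. The ratio of Tap1 to Psmb9 in FPKM was 2.59 ± 0.65 with high fructose and LPS, 2.27 ± 0.11 with high glucose and LPS, 2.73 ± 0.32 with LPS in control medium and 1.29 ± 0.09 without LPS. It was higher in all 3 LPS libraries of control medium than in those without LPS, by 1.08 on the log2 scale. Fructose and LPS in control medium overlapped (difference −0.10, exact permutation p = 0.6). High glucose lay below LPS in control medium without overlap (difference −0.26, exact permutation p = 0.10, the smallest possible). Reads from the overlap of their exons, 3.87% of Tap1 and 5.79% of Psmb9, can be told apart only with strand, and no source used here says whether the counting used it.

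Set against the RNA of the constitutive subunit each replaces, the inducible RNAs stood higher after LPS without overlap for 2 of 3 pairs. These were Psmb10 to Psmb7 and Psmb8 to Psmb5 (exact permutation p = 0.10 each, adjusted 0.141). The ratio of Psmb10 to Psmb7 was 0.880 ± 0.090 with high fructose and LPS, 1.03 ± 0.06 with high glucose and LPS, 1.19 ± 0.05 with LPS in control medium and 0.793 ± 0.096 without LPS. That of Psmb9 to Psmb6 was 0.0139 ± 0.0011 with high fructose and LPS, 0.0209 ± 0.0015 with high glucose and LPS, 0.0229 ± 0.0043 with LPS in control medium and 0.0179 ± 0.0012 without LPS. The fructose values of this pair lay below those of all 3 other groups, and those with LPS in control medium overlapped those without LPS. The ratio of Psmb8 to Psmb5 was 0.179 ± 0.007 with high fructose and LPS, 0.204 ± 0.016 with high glucose and LPS, 0.218 ± 0.008 with LPS in control medium and 0.183 ± 0.004 without LPS, but 88.4% of the Psmb5 transcript matches other genes, so its level is uncertain. Fructose lay below LPS in control medium in every library of all 3 pairs. The log2 differences were −0.28, −0.71 and −0.44 for Psmb8, Psmb9 and Psmb10, each at the smallest possible exact permutation p of 0.10 (adjusted 0.141). High glucose lay below LPS in control medium without overlap for Psmb10 to Psmb7 (−0.21, the same p). It overlapped LPS in control medium for the other pairs.

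**Figure D2:**
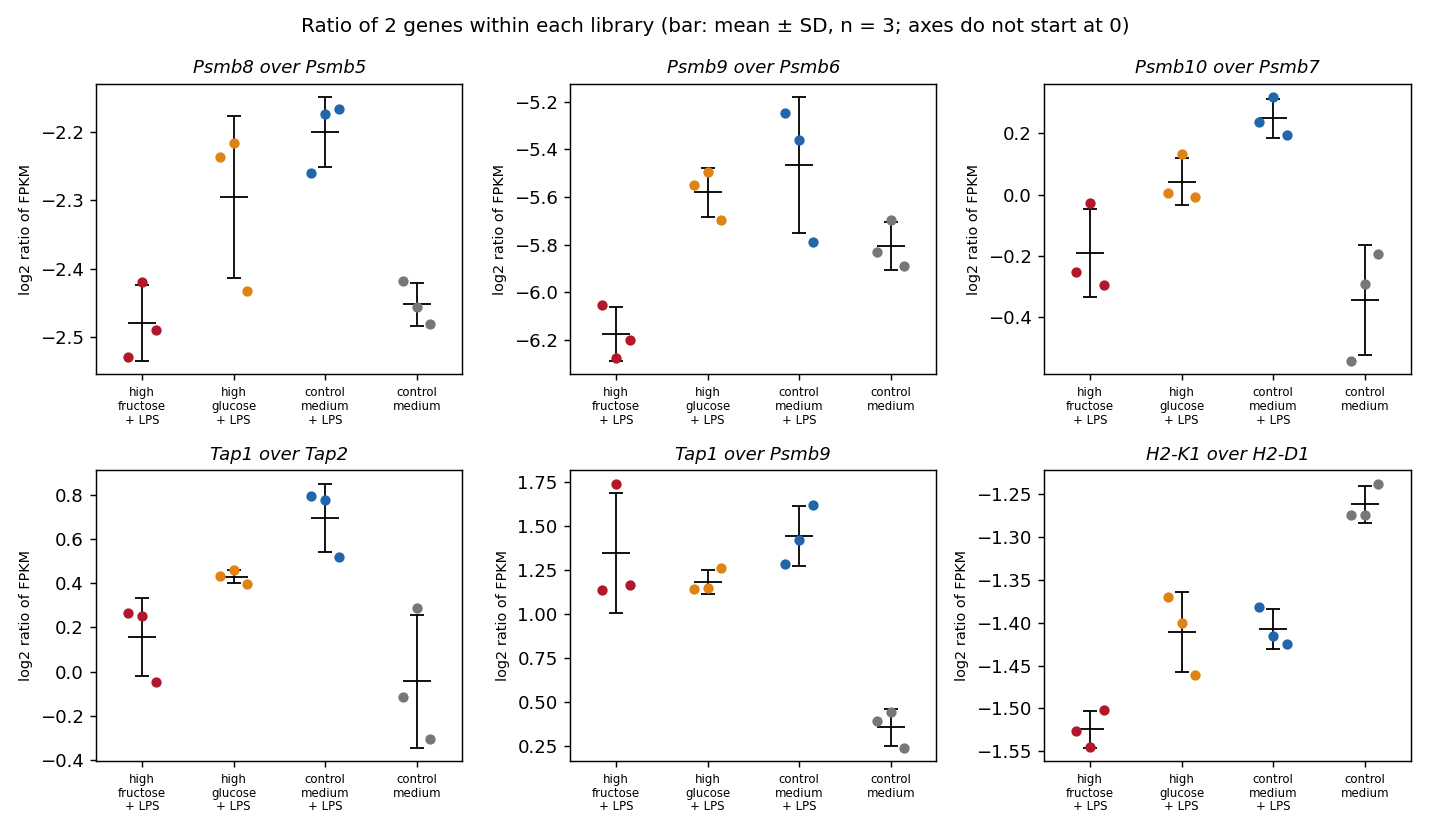
Log2 ratio of deposited FPKM of 6 gene pairs within each library, 1 panel per pair, with the 4 groups side by side. Points are libraries and bars give mean ± SD of 3. For Psmb9 over Psmb6 the fructose libraries lie below all others, at a mean of −6.18 against −5.47 with LPS in control medium.

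Nlrc5, the co-activator (ENSMUSG00000074151, chr8:94434356-94527272, plus strand), had 47.7, 52.4 and 50.05 CPM with high fructose and LPS, 54.6, 52.8 and 55.1 CPM with high glucose and LPS, and 57.1, 58.2 and 59.5 CPM with LPS in control medium, against 22.2, 22.7 and 27.2 CPM without LPS. The fructose libraries lay below the glucose libraries, which lay below those with LPS in control medium, and all far above those without LPS. LPS raised Nlrc5 2.42-fold, by 1.27 ± 0.07 (adjusted p = 2.18e-10). High fructose gave −0.22 ± 0.07 (adjusted p = 0.0933) and high glucose −0.10 ± 0.07 (adjusted p = 0.557), neither past the threshold.

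The next comparison asked what high fructose did to the LPS-treated cells. It lowered 5 of the 10 genes (Tap1, Psmb9, Psmb10, Tapbp and B2m), where 2.55% of all genes tested were called lower, and raised none. For 9 of the 10, all but H2-D1, the fructose libraries lay below all libraries with LPS in control medium, where 10% of all genes tested did so. The median log2 change of the 10 was −0.27 (−0.86 to −0.03), against −0.0013 over all genes tested. Set against control medium without LPS, 8 of 10 genes were higher in all fructose libraries, where 22.5% of all genes tested were, and Psmb8 and Psmb9 overlapped. The ribosomal RNA share was lower in the fructose libraries too, as given above, and fructose library 2 stood apart from the other 2 on the third principal component (32.2 against 9.58 and 6.2). On the second the fructose libraries were spread as well (−23.8, 10.9 and −2.01 for libraries 1, 2 and 3). Without library 2 Tap1, Tapbp, Psmb9 and Psmb10 were still called, and without library 1 all 5 were.

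High glucose lowered 1 of the 10 genes, Tap1, where 0.971% of all genes tested were called lower. For 3 of 10 (Tap1, Psmb10 and Nlrc5) the glucose libraries lay below all with LPS in control medium, where 9.76% of all genes tested did so, and the median change was −0.11 against 0.0027 over all genes tested. Glucose library 1 stood apart from libraries 2 and 3 on the second principal component (11.9 against −15.8 and −18.5), and without it Tap1 had −0.44 ± 0.09 (adjusted p = 0.0358). The fructose and glucose comparisons share the libraries with LPS in control medium, so their values are not independent. Tap1 changed by −0.86 with fructose and −0.38 with glucose, Psmb9 by −0.77 and −0.13, Psmb10 by −0.40 and −0.12, Tapbp by −0.30 and −0.08, and B2m by −0.24 and −0.11.

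The sugars were then compared with each other, high fructose over high glucose, with no shared library. As listed, these media differ in both glucose and fructose. Fructose was lower for 4 of the 10 genes, where 1.88% of all genes tested were called lower, and for 6 of 10 the fructose libraries lay below all glucose libraries, where 8.64% of all genes tested did so. The median change of the 10 was −0.20, against −0.0018 over all genes tested. The called genes were Psmb9 at −0.64 ± 0.14 (adjusted p = 0.0115), Tap1 at −0.48 ± 0.09 (0.00438), Psmb10 at −0.28 ± 0.05 (0.00333) and Tapbp at −0.22 ± 0.05 (0.00967). The call of Psmb9 was lost without glucose library 1 (adjusted p = 0.0587) or fructose library 2 (0.0645), and that of Tapbp in a fit of these 2 groups alone (0.0652). H2-D1, at 0.02 ± 0.05, and H2-K1, at −0.10 ± 0.06, did not pass, nor did B2m, Tap2, Psmb8 and Nlrc5 (−0.21 to −0.11).

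**Figure D3:**
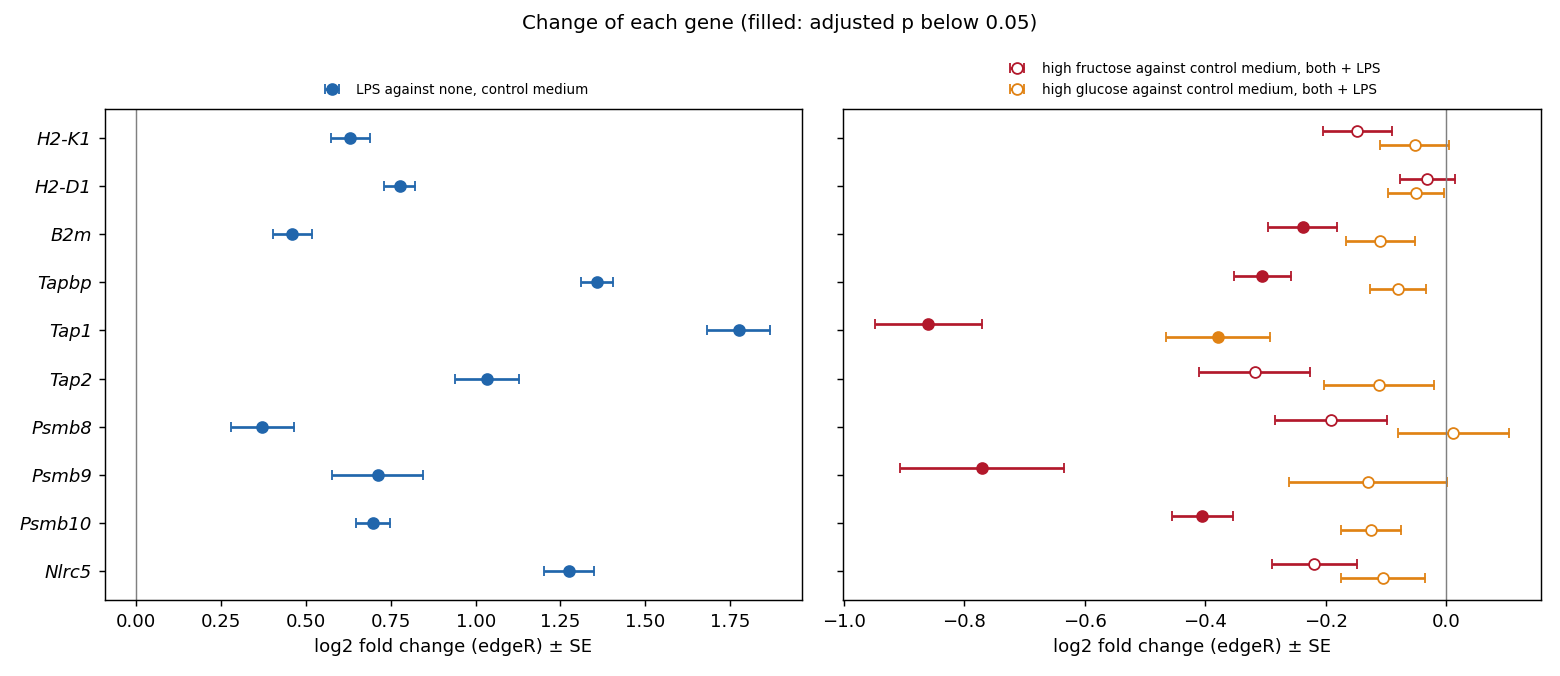
Log2 fold change of the 10 genes with its standard error, for LPS in control medium against control medium (left) and for high fructose and high glucose, each with LPS, against LPS in control medium (right). Filled points passed an adjusted p below 0.05. After LPS all 10 lie above 0 (0.37 to 1.78), and with high fructose all 10 lie below 0 (−0.86 to −0.03), 5 of them filled.

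The other genes of the pathway were read from lists. Of 14 further class I chain genes tested, LPS raised 7 and lowered 2, where 15.2% and 13.6% of all genes tested were called, with a median of 1.00. The 4 with the smallest adjusted p were the nonclassical chains H2-T22 at 1.03 ± 0.07, H2-Q4 at 1.20 ± 0.09, H2-T24 at 1.97 ± 0.15 and H2-T23 at 1.23 ± 0.13. High fructose lowered 3 of the 14, where 2.55% of all genes tested were called lower. They were H2-T22 at −0.47 ± 0.07 (adjusted p = 0.000345), H2-Q4 at −0.48 ± 0.09 (0.00211) and H2-T10 at −0.78 ± 0.18 (0.0162), and the median of the 14 was −0.18. H2-T10 and H2-T22 matched each other over 34.98 and 41.9% of their transcripts at 98% identity, below the 50% at which a gene was called uncertain. At 95% identity 100% of both and 86.6% of H2-T23 matched other genes, so reads of these 3 may be shared. Against high glucose, fructose lowered 2 of the 14, where 1.88% of all genes tested were called lower. They were H2-T22 at −0.43 and H2-T24 at −0.65.

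Genes for the steps before and during peptide loading are given next, beside the 15.2% of all genes tested that were called higher with LPS and the 2.55% called lower with high fructose. Of 10 loading, trimming and chaperone genes LPS raised 2, Tapbpl, a tapasin-related protein, by 0.72 ± 0.12 and Erap1, the peptidase that trims peptides in the endoplasmic reticulum, by 0.25 ± 0.05. High fructose lowered 1, Erap1, at −0.25 ± 0.05 (adjusted p = 0.00633). Of the 3 constitutive catalytic subunits LPS raised Psmb6 (0.36 ± 0.06), of 16 other subunits and assembly factors of the proteasome core it raised Psma5 (0.21), Psma6 (0.19) and Psma3 (0.16), and of 4 proteasome activators it raised Psme1 (0.23 ± 0.05) and Psme2 (0.88 ± 0.13), of which Psme2 is uncertain because 82.5% of its transcript matches other genes. With high fructose edgeR called 0 of these 23, with 1 at an unadjusted p below 0.05, and DESeq2 called 1, an activator. The list medians after LPS were 0.12, 0.07 and 0.14.

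Among 11 tested transcription factors of class I genes, LPS raised 4 and lowered 1, where 15.2% and 13.6% of all genes tested were called. Nfkb1, an NF-kB subunit, rose by 1.35 ± 0.05 and Rela, its partner, by 0.20 ± 0.05. Irf1, a factor induced by interferon, rose by 1.29 ± 0.10 and the related Irf2 by 0.54 ± 0.10. High fructose, with 2.55% of all genes tested called lower, lowered 2 of the 11, Irf1 at −0.39 ± 0.09 (adjusted p = 0.0184) and Irf2 at −0.39 ± 0.10 (0.0296), while Nfkb1 had 0.11 ± 0.04 (0.208). Irf1 averaged 5.04 ± 0.45 FPKM with high fructose and LPS, 6.97 ± 0.55 FPKM with high glucose and LPS, 6.64 ± 0.19 FPKM with LPS in control medium and 2.71 ± 0.27 FPKM without LPS. Against high glucose, fructose lowered Irf1 (−0.47, adjusted p = 0.00743). Of 6 class II genes tested, LPS raised 1 (15.2% of all genes tested), Cd74 at 0.44 ± 0.06, and with high fructose edgeR and DESeq2 called 0, with 2 at an unadjusted p below 0.05. With high glucose edgeR and DESeq2 called 0 of the 64 genes tested in these 7 lists, with 3 at an unadjusted p below 0.05. Over all 12766 genes tested, edgeR called 199 with high glucose.

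**Figure D4:**
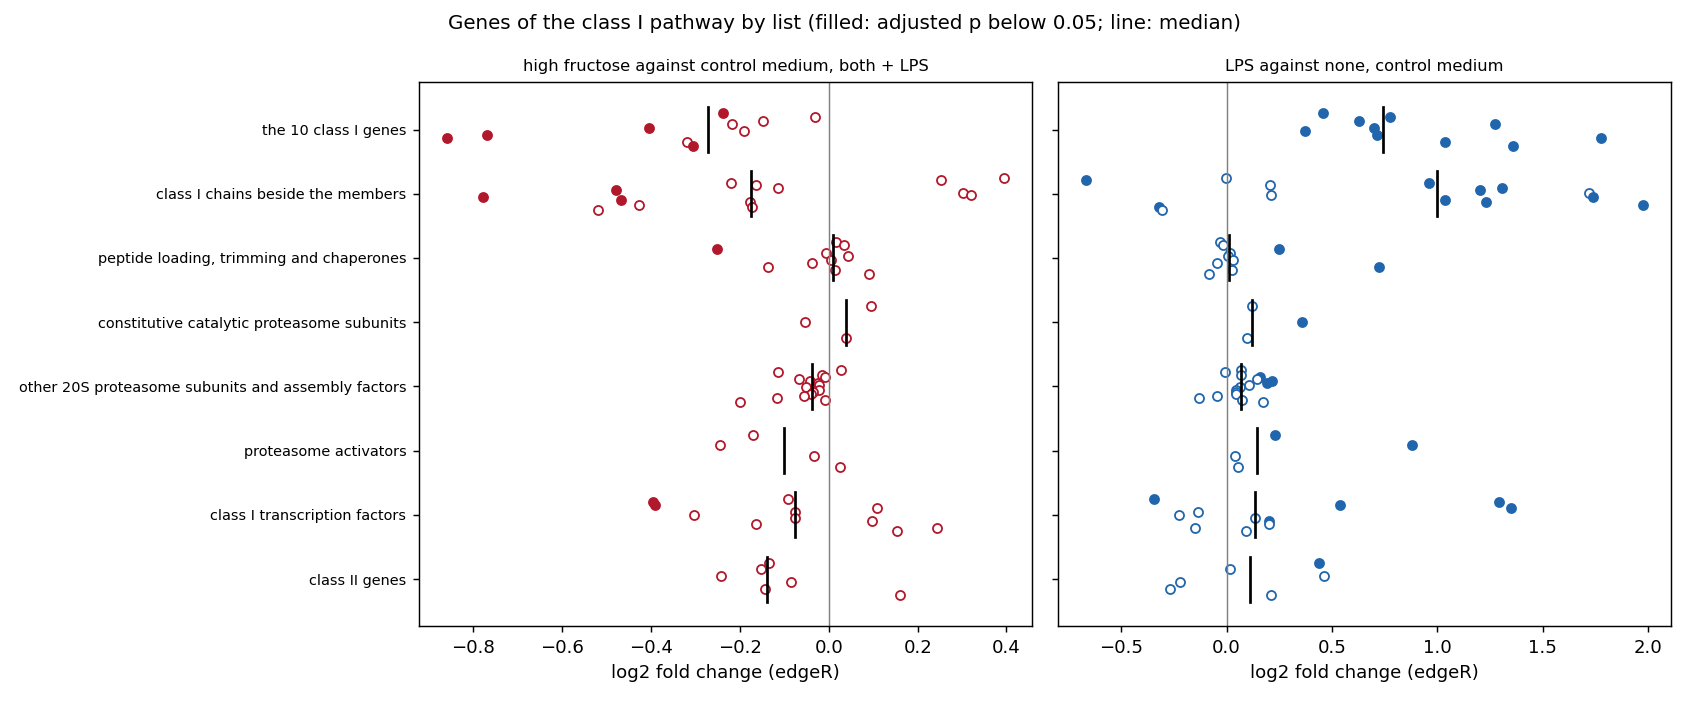
Log2 fold changes of the 10 genes and of the genes of 7 pathway lists, for high fructose with LPS against LPS in control medium and for LPS in control medium against control medium. Each point is a gene, lines are list medians, and filled points passed an adjusted p below 0.05. The 10 genes lie at 0.37 to 1.78 after LPS and at −0.86 to −0.03 with high fructose.

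Over the 12 libraries, the genes whose centred log2 CPM lay closest to Tap1 among 9890 genes searched were Herc6, Cd300lf and Eif2ak2, at a root-mean-square difference of 0.117, 0.126 and 0.131. They changed by 1.80, 1.63 and 1.61 with LPS and by −0.78, −0.72 and −0.65 with high fructose. These genes were picked for their closeness in the same libraries, so changes like those of Tap1 follow from the choice. Closest to Nlrc5 were Slc7a8, Sgk1 and Lacc1 (0.0871, 0.0906 and 0.0943). Closest to H2-K1 were Npc2, Map2k1 and Tbrg1 (0.0511, 0.0562 and 0.0592).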

How the data were processed

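RNA of 12 N9 libraries, 3 in each of 4 groups taken from the labels, was analysed. The authors deposited raw counts by gene (featureCounts 1.5.0-p3, build mm10, per the submitters' processing notes) and FPKM values, which equal count over gene length and over 1 constant per library (largest deviation 8.73e-08% for genes with at least 200 counts). No source used here gives the aligner, annotation release or strand setting. Counts were filtered with filterByExpr, scaled by TMM and tested with edgeR 4.0.16 in R 4.3.3, in 1 quasi-likelihood model of all libraries (8 residual degrees of freedom) with Benjamini-Hochberg adjustment over the 12766 genes of each of 4 contrasts. Ratios of 2 genes used FPKM and a two-sided exact permutation test over libraries. Shared sequence was measured with BLAST 2.17.0+ against GENCODE M21 transcripts, calling a gene uncertain where at least 50% matched at 98% identity over 75 bases. Identity was averaged over each alignment. Shared sequence was not measured for the other core proteasome subunits and assembly factors, the transcription factors or the class II genes. The 95% identity setting and 1 motif were added after seeing the data. The genes described and the lists were chosen with earlier results of these data known. An item of the transcription factor list is not reported here. Named genes were the 10, up to 4 genes of each list with the smallest adjusted p after LPS, any called with a sugar, and the 3 nearest to Tap1, Nlrc5 and H2-K1 in pattern. Alternatives were other scalings, no filter, DESeq2 1.42.0, limma 3.58.1 on log2(FPKM + 1) or log2(FPKM + 0.1), a replicate block, 2 groups alone and each library left out. Intervals of counting were not used, since libraries of a group differed by more than counting error (chi-square per degree of freedom of at least 3.61).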

Additional observations from a re-analysis of the deposited data

Results flagged for a closer look

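Of the 10 genes, 4 were called lower with high fructose than with high glucose under LPS, where 1.88% of all genes tested were. The test was edgeR's quasi-likelihood test of the difference itself, in which the shared LPS libraries cancel. This is the comparison of the sugars given above. The effect of high fructose minus that of high glucose was −0.64 for Psmb9, −0.48 for Tap1, −0.28 for Psmb10 and −0.22 for Tapbp on the log2 scale. In each case all 3 fructose libraries lay below all 3 glucose libraries, where 8.64% of all genes tested did so. The calls of Psmb9 and Tapbp were lost under the alternatives given above. That of Tap1 was lost with limma on log2(FPKM + 1) and no filter (adjusted p = 0.0581), as was that of Psmb9 (0.0913). No explanation was tested.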

How the results depend on the processing

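The 10 rises after LPS were called under every alternative run except that limma on log2(FPKM + 1) with no filter left 9, without Psmb8 (adjusted p = 0.058). With high fructose 5 genes were called, 4 to 6 across alternatives and 4 to 5 with a library left out. With high glucose the 1 call became 0 with each limma setting and 0 to 1 with a library left out, and all genes called with high glucose, 199 in the report, were 427 with no filter, 328 with DESeq2, 93 with limma on log2(FPKM + 1) and no filter, and 67 to 177 with a library left out. For fructose against glucose, 4 genes were called, 2 with limma and no filter, and all genes called, 475, were 247 with these 2 groups alone. Deviations of same-numbered libraries were weakly correlated (−0.19 to 0.12). With the replicate number as a block more genes were called, 4149 against 3677 with LPS and 391 against 199 with high glucose. They were 847 against 627 with high fructose and 735 against 475 between the sugars. Whether same-numbered libraries were handled together was not tested. Among values that were not called, the sign turned with a library left out for H2-K1 (−0.10 to 0.0022) and Psmb8 (−0.0752 to 0.0531) with high glucose, and for H2-D1 with high fructose (−0.07 to 0.0106) and against high glucose (−0.019 to 0.0614). It also turned for the log2 ratio of Tap1 to Psmb9 with high fructose (−0.29 to 0.0092) and against high glucose (−0.034 to 0.2676), and of H2-K1 to H2-D1 with high glucose (−0.0237 to 0.0221). The cause was not tested. With upper-quartile scaling 1622 genes rose and 2292 fell after LPS, and with library totals alone 1412 and 2951, against 1941 and 1736. Psmb9 had the fewest counts of the 10, which limits its precision.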
